A study of Mus musculus with 2 samples.

Results

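The genes described here encode Polycomb repressive complex 2 (PRC2) and its cofactors. They were taken by symbol from the raw count table: Ezh1, Ezh2, Eed, Suz12, Jarid2, Mtf2, Phf19 and Epop, 8 of 33963 genes. The single-cell transcriptomes came from 5 mouse cell populations, all given as strain 129/Ola. They were tagged with separate oligonucleotides and sequenced as 1 pooled cDNA library. Naive mouse embryonic stem cells (naive mESCs) carried a Rex1-GFP reporter, and primed mouse epiblast stem cells (primed mEpiSCs) were of the line Oct4GIP, in which the Oct4 promoter drives enhanced GFP and puromycin resistance. Primed cells were kept on fibronectin with FGF2 and Activin A and were plated on mouse embryonic fibroblasts (MEFs) for the reversion. There they were treated with AICAR, an activator of the energy sensor AMPK, plus the cytokine LIF until day 8 (d8) or day 16 (d16). Some d16 cells then went through 10 passages in 2iL, LIF medium containing a pair of kinase inhibitors (d16+10p). Naive cells were kept in 2iL as well. The paper describes naive and reverted cells as separate lines whose genomic backgrounds differ. Line, medium and state thus cannot be told apart in naive against primed cells. The study asked how primed cells return to the naive state under AICAR + LIF. Each state was a single line and a single tagged sample, with no replicates, so no difference below has a replicate check and no test was made.

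PRC2 methylates lysine 27 of histone H3, a mark of silenced developmental genes. Ezh2 and its relative Ezh1 are the alternative catalytic subunits, Suz12 is the scaffold, and Eed binds the methylated histone and activates the enzyme. The core joins one of several sets of cofactors. The Polycomb-like proteins Mtf2 and Phf19 recruit it to CpG islands and Epop can join them (the PRC2.1 form), whereas Jarid2 and Aebp2 define the PRC2.2 form. In pluripotent cells the complex is best known for holding lineage genes in check, and the cells survive its loss.

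Because levels can mix cell types, the composition of the tags comes before the results. Levels are given in CPM, the reads of a gene per 1000000 reads of the cell or group. The d16 cells were split at a Dppa5a level of 1000 CPM in the cell into 1278 Dppa5a-high and 3037 Dppa5a-low cells. Dppa5a is a gene of naive cells. There were 801 naive, 1826 primed, 9627 d8 and 1151 d16+10p cells. The median depth ran from 8691 reads per cell in d16 Dppa5a-low to 21551 in d16+10p. Most cells under the primed tag, 1355 of 1826, lay outside the clusters with high Pou5f1 (Oct4), called Pou5f1-high, and 418 lay in the cluster where the tag was most enriched. Such cells in the cluster most enriched for their tag are called core cells here, and they numbered 507 for naive, 418 for primed, 1119 for d16 Dppa5a-high and 892 for d16+10p. Fibroblast markers (7 genes) summed to 1572 CPM under the primed tag and to 402 in its core cells. Naive markers (8 genes) summed to 4500 CPM in naive core cells and to 192 in primed core cells, and primed markers (8 genes) to 149 and 821. In sums over a tag, fewer cells of a type and less RNA per cell cannot be told apart.

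The promoters of the 4 genes that carry the main contrasts are shown from RefSeq (GRCm38.p6), 250 bases before to 50 after the start site. The capitals mark a word of the E2F type, the sequence class bound by cell cycle factors. The words searched on both strands were TTTGGCGC, TTTCGCGC, TTTGGCGG, TTTCCCGC, TTTCGCGG and TTTCCCGG, and at least 1 of them occurs in 3.81% of all 32851 promoters of this length. Ezh2 (chr6:47594981-47595280, minus strand) holds TTTGGCGC at +4 and Suz12 (chr11:79992856-79993155, plus strand) holds TTTCCCGC at -219, counted from +1 at the start site. Eed (chr7:89980927-89981226, minus strand) and Mtf2 (chr5:108065424-108065723, plus strand) hold none of these words.
Ezh2: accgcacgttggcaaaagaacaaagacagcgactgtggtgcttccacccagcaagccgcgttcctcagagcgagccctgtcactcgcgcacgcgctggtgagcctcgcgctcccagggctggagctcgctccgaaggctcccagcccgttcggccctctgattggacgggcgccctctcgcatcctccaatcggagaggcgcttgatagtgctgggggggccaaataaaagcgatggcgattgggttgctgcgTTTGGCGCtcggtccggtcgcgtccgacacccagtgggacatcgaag
Suz12: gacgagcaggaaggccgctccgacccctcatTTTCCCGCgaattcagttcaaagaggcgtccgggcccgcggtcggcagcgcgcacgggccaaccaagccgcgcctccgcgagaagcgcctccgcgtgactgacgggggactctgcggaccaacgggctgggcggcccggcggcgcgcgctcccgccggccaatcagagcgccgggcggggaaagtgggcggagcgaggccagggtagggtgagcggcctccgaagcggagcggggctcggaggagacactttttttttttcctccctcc
Eed: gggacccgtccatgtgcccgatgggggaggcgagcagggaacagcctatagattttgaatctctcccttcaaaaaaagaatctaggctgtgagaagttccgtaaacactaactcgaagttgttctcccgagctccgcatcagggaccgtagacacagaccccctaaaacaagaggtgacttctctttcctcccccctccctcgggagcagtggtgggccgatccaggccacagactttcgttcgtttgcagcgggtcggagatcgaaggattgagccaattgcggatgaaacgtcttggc
Mtf2: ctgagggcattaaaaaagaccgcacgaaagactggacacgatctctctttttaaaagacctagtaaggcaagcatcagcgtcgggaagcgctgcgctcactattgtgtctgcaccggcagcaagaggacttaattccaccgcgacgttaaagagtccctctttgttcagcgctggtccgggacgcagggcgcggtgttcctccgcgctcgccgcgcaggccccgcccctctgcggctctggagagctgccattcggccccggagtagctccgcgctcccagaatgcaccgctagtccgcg
The Phf19 promoter holds GCGGGAAA, the reverse complement of a searched word, at -208. None of the words lies in the windows of Ezh1 and Jarid2. CG dinucleotides numbered 31 in the Ezh2, 41 in the Suz12, 17 in the Eed and 30 in the Mtf2 window shown, against a median of 7 over all promoters. Another Mtf2 start site has a window (chr5:108077915-108078214, plus strand) with 2 CG dinucleotides and none of the words. Epop is named only. A match is a description of letters and not a site.

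The catalytic subunit Ezh2 (chromosome 6, 47530139 to 47595341, GRCm38, minus strand) was high in all pluripotent cells, primed cells included. Levels were summed over the cells of a group, with 95% counting intervals that take each read as independent. Ezh2 was at 257 CPM (249 to 264) in naive, 216 (211 to 222) in primed, 113 (111 to 114) in d8, 115 (112 to 119) in d16 Dppa5a-low, 313 (305 to 320.2) in d16 Dppa5a-high and 243 (237 to 249) in d16+10p cells. The d8 and d16 Dppa5a-low cells were the low groups, and d16 Dppa5a-high was the highest. In core cells the level was 279 CPM (270.3 to 289) in naive and 276 (266 to 286) in primed, a log2 ratio of 0.02 (-0.05 to 0.09). The interval of this ratio stays within 0.1 on the log2 scale. The reads of a macrophage-like cluster, which came mostly from d8, gave 50.6 CPM (47.4 to 53.9), the lowest of the 15 clusters with at least 100 cells. High Ezh2 was not limited to pluripotent cells. Cluster 2 (Lefty1, Fgf15), with 69.2% d8 cells and not Pou5f1-high, was at 220 CPM (215 to 226). Cluster 10 (T, Shh), with 82.6% d8 cells and not Pou5f1-high, was at 199 CPM (191 to 208).

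Suz12 and Eed, the partners Ezh2 needs for activity, did not follow this pattern, because they were low in primed cells. Suz12 (chromosome 11, 79993106 to 80034123, plus strand) was at 244 CPM (236 to 253) in naive core cells, 99.4 (93.3 to 106) in primed core cells, 305 (297 to 313) in d16 Dppa5a-high core cells and 221 (215 to 227) in d16+10p core cells. The primed value lay below every other core, and the macrophage-like cluster was at 87.3 CPM (83.1 to 91.6). After thinning all cells to 5000 reads, 33.1% (28.5 to 37.9%) of primed core cells had a Suz12 read, against 32.4% (29.2 to 35.7%) of macrophage-like and 64.1% of naive core cells. Eed (chromosome 7, 89954654 to 89980983, minus strand) was at 124 CPM (118 to 131) in naive, 59.2 (54.5 to 64.2) in primed, 141 (136 to 147) in d16 Dppa5a-high and 136 (131 to 140.4) in d16+10p core cells. In d16 Dppa5a-low cells the thinned share with an Eed read, 15.9%, was at that of macrophage-like cells, 16.0%. How much of either share is free RNA was not tested. By summed CPM, naive core cells had 2.44 times as much Suz12 and 2.08 times as much Eed as primed core cells. The Suz12 share of primed core cells was near that of macrophage-like cells. Cluster 0 (Lox, Ccl2) lay lower than the macrophage-like cluster, at 78.2 CPM (75.7 to 80.8), so the latter is not a floor of free RNA for Suz12. How much of the primed Suz12 level is free RNA was not tested. If part of it is, the Suz12 ratio would be a lower bound. Proliferation genes, a list of 14, summed to 2861 CPM in naive core and 2745 CPM in primed core cells. The log2 ratio of naive against primed core was 1.29 (1.19 to 1.40) for Suz12 and 1.06 (0.93 to 1.21) for Eed.

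**Figure D1:**
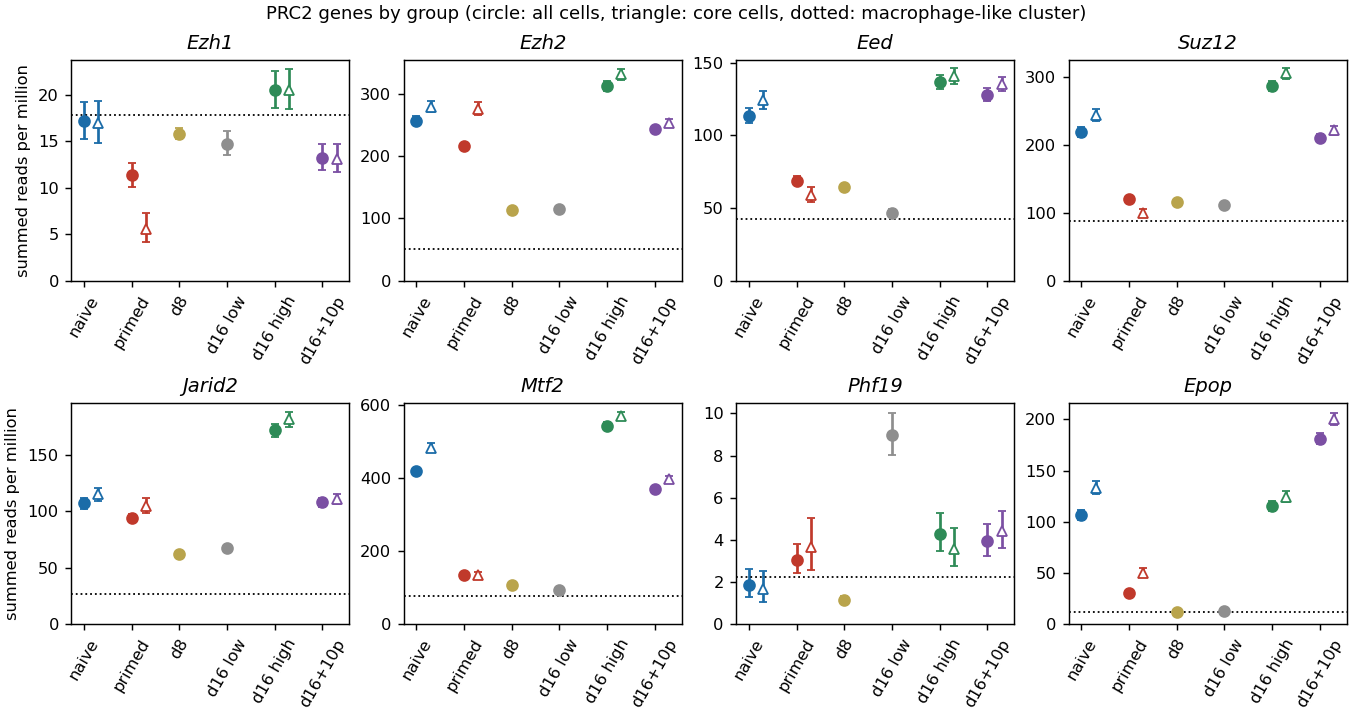
Summed level in CPM (vertical axis, linear from 0) of each PRC2 gene in the naive, primed, d8, d16 Dppa5a-low (d16 low), d16 Dppa5a-high (d16 high) and d16+10p groups. Circles are all cells of a group, triangles core cells, bars 95% counting intervals and the dotted line the macrophage-like cluster; Ezh2 is at 279 and 276 CPM in naive and primed core cells, where Suz12 is at 244 and 99.4.

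Ezh1 (chromosome 11, 101191115 to 101226463, minus strand), the catalytic subunit typical of cells that divide little, was low in primed core cells. It was at 17.0 CPM (14.8 to 19.4) in naive, 5.57 (4.19 to 7.25) in primed, 20.6 (18.5 to 22.8) in d16 Dppa5a-high and 13.1 (11.7 to 14.7) in d16+10p core cells. The primed core had 55 Ezh1 reads in its 418 cells, and its cluster, cluster 12, was the lowest of the 15 at 5.55 CPM. Cells under the primed tag outside the Pou5f1-high clusters had 14.3 CPM (12.6 to 16.2). After the same thinning, 2.21% (1.01 to 4.15%) of 408 primed core cells had an Ezh1 read, against 7.35% (5.67 to 9.34%) of 830 macrophage-like cells, with median depths of 22665 and 17361 reads before thinning. The tagged groups had thinned shares from 5.14 to 8.08%, and their intervals overlapped that of the macrophage-like cells. The share of primed core cells lay below both in the same pooled library, so the macrophage-like share is not a floor of free RNA for Ezh1. How much of the Ezh1 share of any group is free RNA was not tested.

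Among the PRC2.1 cofactors, Mtf2 and Epop set naive and reverted cells most widely apart from all others. Mtf2 (chromosome 5, 108065674 to 108109004, plus strand) was at 419 CPM (409 to 429) in naive, 135 (131 to 139) in primed, 105 (104 to 107) in d8, 92.0 (88.8 to 95.2) in d16 Dppa5a-low, 545 (535 to 555) in d16 Dppa5a-high and 370.5 (363 to 378) in d16+10p cells. No interval of the 3 high groups touched one of the 3 low groups. Primed core cells were also at 135 CPM (128 to 143), and primed cells outside the Pou5f1-high clusters at 119 (114 to 124). Tmed5, on the opposite strand, was at 101 CPM in naive, 115 in primed and 196 in d8 cells and thus did not follow Mtf2. After thinning, 88.0% of naive core, 46.8% of primed core, 85.1% of d16 Dppa5a-high core and 77.6% of d16+10p core cells had an Mtf2 read, against 27.1% of macrophage-like cells.

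Epop (chromosome 11, 97627389 to 97629702, minus strand), which links PRC2 with elongin, had its highest level in the expanded cells. It was at 107 CPM (102 to 112) in naive, 30.2 (28.2 to 32.3) in primed, 11.7 (11.2 to 12.2) in d8, 12.7 (11.6 to 14.0) in d16 Dppa5a-low, 115 (110.5 to 119.7) in d16 Dppa5a-high and 181 (176 to 186) in d16+10p cells. The d8 and d16 Dppa5a-low values were at the level of the macrophage-like cluster, 11.8 CPM (10.2 to 13.4). The thinned share of d16 Dppa5a-low cells, 4.0%, was also at that of macrophage-like cells, 4.1%. Cluster 0 lay lower, at 9.02 CPM (8.2 to 9.92), so the macrophage-like level is not a floor of free RNA for Epop. How much of the d8 and d16 Dppa5a-low levels is free RNA was not tested. Primed core cells, at 49.9 CPM (45.6 to 54.5), lay between these levels and the naive core at 133 (127 to 139).

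Phf19 (chromosome 2, 34893757 to 34914026, minus strand), the other Polycomb-like gene, was close to the detection limit and had its own pattern. It was at 1.86 CPM (1.27 to 2.62) in naive, 3.05 (2.44 to 3.77) in primed, 1.13 (0.98 to 1.30) in d8, 8.99 (8.02 to 10.0) in d16 Dppa5a-low, 4.28 (3.44 to 5.27) in d16 Dppa5a-high and 3.93 (3.2 to 4.76) in d16+10p cells. It was the only member with a higher level in d16 Dppa5a-low than in d16 Dppa5a-high cells. Its highest cluster was cluster 3 at 12.9 CPM (11.3 to 14.6), with 90.1% d16 cells and the leading genes Fabp7 and Efnb3. Reads came from 7.48% of the cells of that cluster.

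Jarid2 (chromosome 13, 44729474 to 44921643, plus strand), the DNA-binding cofactor of PRC2.2, was at 107 CPM (102 to 112) in naive, 93.8 (90.3 to 97.5) in primed, 62.0 (60.8 to 63.1) in d8, 67.2 (64.5 to 70.0) in d16 Dppa5a-low, 172 (167 to 178) in d16 Dppa5a-high and 108 (104 to 112) in d16+10p cells. Naive and d16+10p overlapped, and d16 Dppa5a-high lay above every other group. In core cells naive was at 115 CPM (109 to 121) and primed at 105 (98.8 to 112). These intervals overlap, but the log2 ratio was 0.13 (0.02 to 0.25), a small difference with naive higher.

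Ratios of the groups were set beside all genes with a mean of at least 10 CPM over both groups. A member or gene was counted when its CPM, with a pseudocount of 1 CPM, differed at least 1.5-fold, and interval bounds were computed from the counts without the pseudocount. Phf19 was under 10 CPM in every comparison, and so was Ezh1 in d16+10p against primed core cells; both are kept in the counts of 8. The comparisons with primed cells share those cells, so they are not independent of each other. In naive against primed, 4 of 8 members were higher and 0 lower (Eed, Suz12, Mtf2, Epop), while 8.18% of 9971 genes were higher and 13.2% lower. The log2 ratio was 1.63 (1.58 to 1.69) for Mtf2 and 1.79 (1.70 to 1.94) for Epop. Ezh2 (0.25) and Jarid2 (0.19) differed least. In core cells 5 were higher, with Ezh1, on 216 and 55 reads, joining the others at 1.45 (1.18 to 2.06), and Phf19 was lower on 21 and 36 reads. Of all genes in core cells, 13.2% were higher and 11.5% lower. Genes of chromosome 6, where Ezh2 lies, had a median log2 ratio 0.26 above that of all autosomes in this contrast, and those of chromosome 11, with Ezh1, Suz12 and Epop, 0.22 above it. Their part in the ratios was not tested.

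At d8 the complex was lower than under the primed tag for some subunits and not for others. Against primed, 0 of 8 members were higher and 4 lower, among 8.9% of genes higher and 9.93% lower. The log2 ratio was -0.93 (-0.98 to -0.90) for Ezh2, -1.29 (-1.48 to -1.25) for Epop and -0.59 (-0.66 to -0.54) for Jarid2, just past the threshold. Phf19 had 204 reads in d8. All d8 cells against primed core cells gave 1 of 8 higher, Ezh1 at 1.36 (1.13 to 1.92), and the same 4 lower, among 26.4% of genes higher and 17.6% lower. Ezh2 was then at -1.28 (-1.35 to -1.23) and Epop at -2.0 (-2.23 to -1.94). In cells above the median of the proliferation list, of d8 and of primed, Ezh2 (-0.50) and Jarid2 (-0.34) were within 1.5-fold. The following values are for all cells of both tags. Suz12 was at 116 CPM in d8 and 119.8 in primed (log2 ratio -0.05, -0.10 to 0.00), and Eed at 64.7 and 68.7 (-0.09, -0.16 to -0.02). All 14 proliferation genes were at least 1.5-fold lower in d8, and their sum was 926 CPM against 1939. Only 32 of 9627 d8 cells lay in Pou5f1-high clusters. In those 32 cells Ezh2 was at 268 CPM (232 to 308) and Mtf2 at 299.9 (262 to 342), against 112 and 105 in the rest of d8. Of the 32 cells, 21 lay in cluster 5, which held 91.0% d16 cells. Whether these few cells are doublets or carry a wrong tag was not tested.

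The d16 Dppa5a-high cells are the d16 cells that express naive genes. Over the groups, Ezh1, Ezh2, Eed, Suz12, Jarid2 and Mtf2 had their highest level in these cells. Their interval overlapped that of d16+10p for Eed and that of naive for Ezh1. The share of all genes that are highest in this group was not computed. Against primed, 6 of 8 were higher and 0 lower, among 11.9% of genes higher and 13.4% lower. In core cells again 6 were higher and 0 lower, among 17.9% and 9.55% of genes. The core log2 ratio was 2.07 (1.99 to 2.16) for Mtf2, 1.72 (1.47 to 2.32) for Ezh1, 1.61 (1.52 to 1.72) for Suz12, 1.30 (1.18 to 1.46) for Epop, 1.24 (1.12 to 1.39) for Eed, 0.79 (0.69 to 0.89) for Jarid2 and 0.26 (0.20 to 0.33) for Ezh2. In this contrast the median log2 ratio of chromosome 6 differed from that of all autosomes by -0.02 and that of chromosome 11 by -0.04.

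Within the d16 culture, 6 of 8 members were higher in Dppa5a-high than in Dppa5a-low cells and 1, Phf19, was lower. Of all genes, 21.1% were higher and 25.2% lower. The log2 ratio was 3.08 (3.03 to 3.33) for Epop, 2.55 (2.51 to 2.62) for Mtf2, 1.53 (1.46 to 1.64) for Eed, 1.43 (1.38 to 1.5) for Ezh2, 1.35 (1.30 to 1.42) for Suz12 and 1.34 (1.28 to 1.43) for Jarid2, while Ezh1 had 0.45 (0.28 to 0.66). The Epop and Eed shares of Dppa5a-low cells were at those of macrophage-like cells, so the ratios of Epop and Eed are lower bounds if these shares are free RNA. The proliferation list summed to 2961 CPM in Dppa5a-high and 1069 in Dppa5a-low cells. Among cells above the pooled median of that list only, 1240 and 1022 cells, the ratio was 0.81 for Ezh2, 1.04 for Suz12, 1.23 for Eed, 2.14 for Mtf2 and 2.76 for Epop. Fibroblast markers summed to 489 CPM in Dppa5a-high and 3326 in Dppa5a-low cells, and macrophage markers (7 genes) to 285 and 956. The part of these cells in the ratios was not tested.

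**Figure D2:**
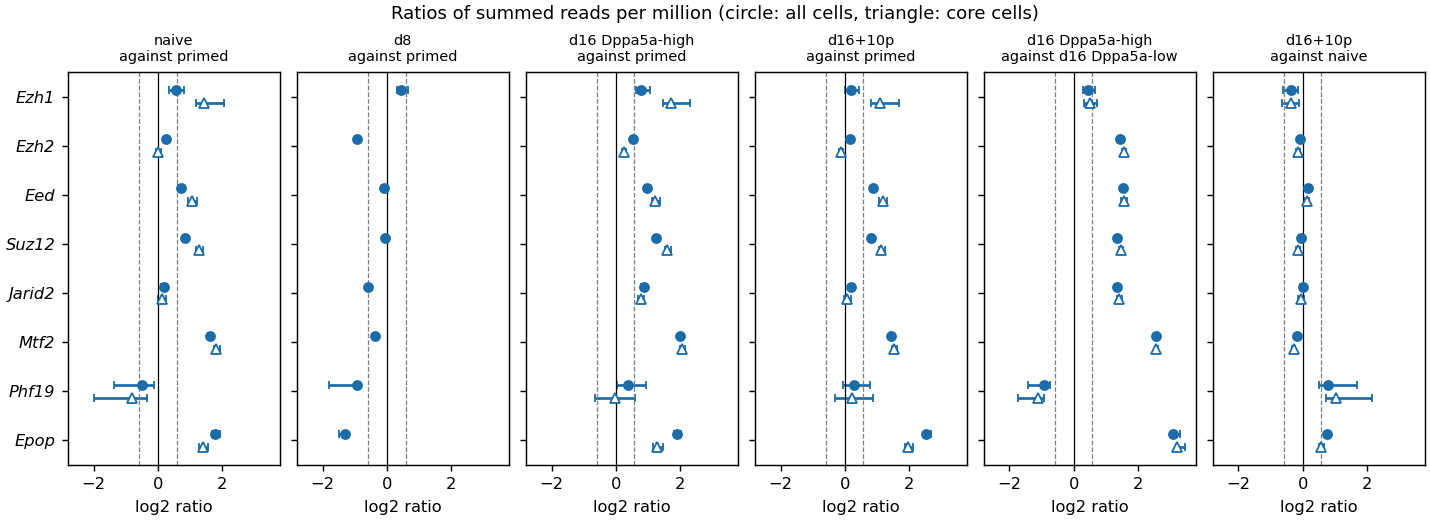
Log2 ratio of summed CPM (horizontal axis) for each PRC2 gene in the 6 comparisons, with 95% counting intervals (circles all cells, triangles core cells) and dashed lines at 1.5-fold. For naive against primed core cells Ezh2 is at 0.02, while Suz12 is at 1.29 and Mtf2 at 1.83.

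Binned by Dppa5a, the d16 cells showed where each gene increased. The bins below 250, 250 to 500, 500 to 1000, 1000 to 2000, 2000 to 4000 and from 4000 CPM of Dppa5a held 2675, 251, 111, 184, 556 and 538 cells. Mtf2 was at 80.7, 114, 316, 428, 524 and 608 CPM in this order. Epop was at 10.7, 22.3, 45.1, 62.2, 113 and 136 CPM, so that both kept increasing to the top bin. Ezh2 was at 109, 144, 215, 286, 317 and 317 CPM and level over the last 2 bins. Just outside and just inside the split at 1000, Suz12 was at 151 CPM (131 to 173) and 213 (197 to 231), and Jarid2 at 97.4 and 162 CPM. The bins between 250 and 2000 CPM can hold same-tag doublets, which the tags do not show.

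**Figure D3:**
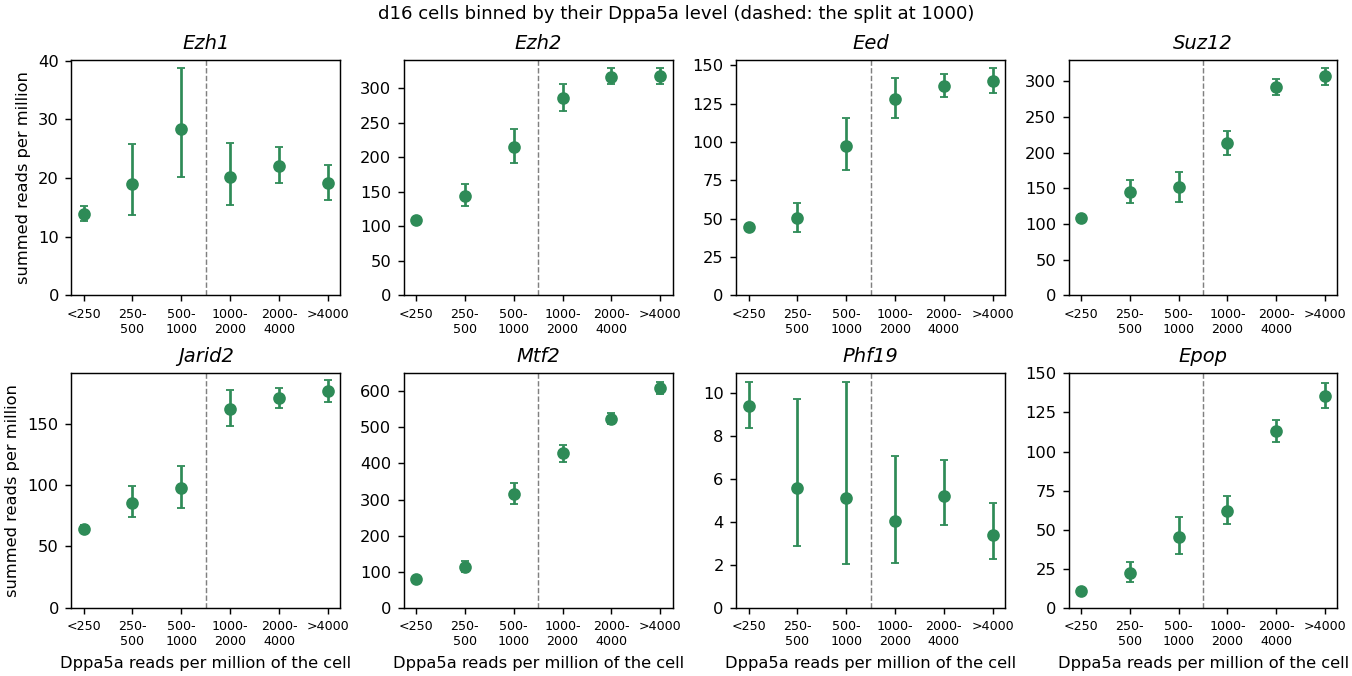
Summed level in CPM of each PRC2 gene (vertical axis, linear from 0, with 95% counting intervals) in d16 cells binned by their own Dppa5a level (horizontal axis). Mtf2 goes from 80.7 to 608 CPM over the bins, and Phf19 has its highest value, 9.39 CPM, in the lowest bin.

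After 10 passages in 2iL, the expanded cells were within 1.5-fold of naive cells in 6 of 8 members. Most genes lay within 1.5-fold too, with 2.81% of all genes higher and 1.99% lower, so the count is not particular to the members. Against primed, 4 of 8 were higher and 0 lower (Eed, Suz12, Mtf2, Epop), among 8.96% of genes higher and 15.1% lower, and in core cells 5 were higher, Ezh1 included, and 0 lower, among 13% and 9.87% of genes. Against naive, 2 of 8 were higher and 0 lower, among 2.81% of genes higher and 1.99% lower. Epop was at 181 against 107 CPM (log2 ratio 0.76, 0.69 to 0.84) and Phf19 at 3.93 against 1.86, on 103 and 32 reads. In core cells the same 2 were higher and 0 lower, among 3.96% of genes higher and 3.16% lower, with Epop at 200.3 against 133 CPM (0.59, 0.51 to 0.67). Jarid2 (0.01, -0.07 to 0.10) and Suz12 (-0.05, -0.11 to 0.01) were nearest to equal, and Mtf2 was at 370.5 against 419 CPM (-0.18, -0.22 to -0.13). The median of chromosome 6 was 0.22 and that of chromosome 11 was 0.13 below that of all autosomes here. The ratio of Ezh2, on chromosome 6, was -0.08 (-0.13 to -0.02). The part of the chromosomes in these ratios was not tested.

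The balance of alternative subunits was read from shares of reads, which need no scaling between groups. The Ezh1 reads can include free RNA, so these are shares of reads and not of expression. Ezh1 took 6.27% (5.59 to 7.0%) of the Ezh1 and Ezh2 reads in naive, 12.3% (11.9 to 12.7%) in d8, 11.4% (10.5 to 12.3%) in d16 Dppa5a-low, 6.16% (5.6 to 6.75%) in d16 Dppa5a-high and 5.16% (4.65 to 5.72%) in d16+10p cells. Under the primed tag it was 4.99% (4.46 to 5.55%), and in primed core cells 1.98% (1.49 to 2.57%), below all other groups. The macrophage-like cluster had 26.0% (23.6 to 28.5%). Mtf2, Phf19 and Epop together took 73.7% (72.9 to 74.5%) of their reads with Jarid2 and Aebp2 in naive, 70.8% (70.2 to 71.5%) in d16 Dppa5a-high and 74.8% (74.2 to 75.4%) in d16+10p cells. In primed (52.4%), d8 (47.7%) and d16 Dppa5a-low cells (47.4%) the share was lower, and in primed core cells it was 56.1% (54.4 to 57.8%). Across samples these shares can be compared, but read shares of genes of different length are not shares of molecules.

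**Figure D4:**
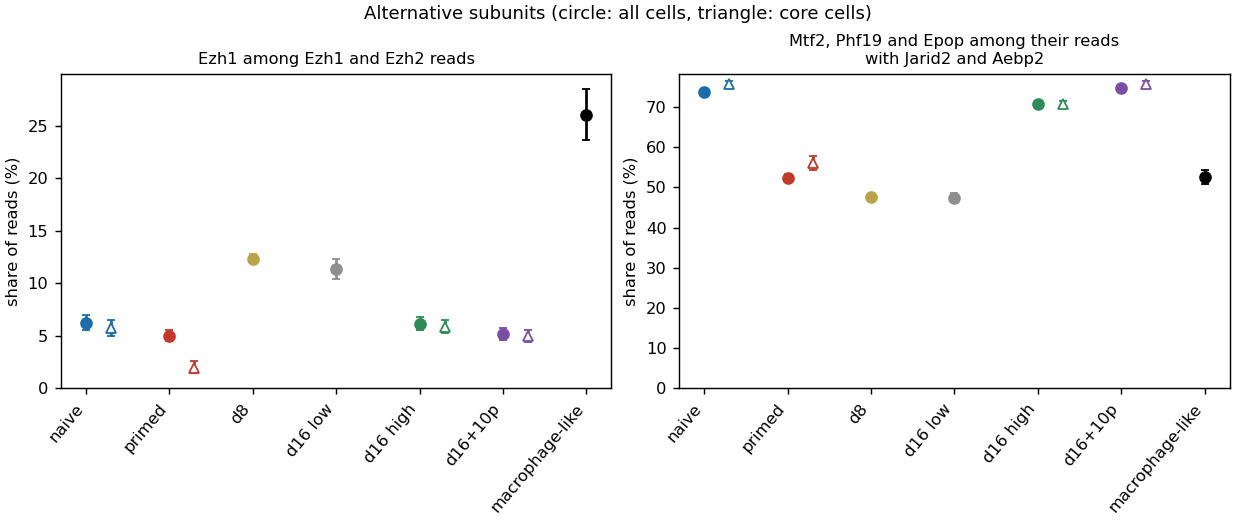
Share of reads in percent (vertical axis, from 0) of Ezh1 among Ezh1 and Ezh2 (left) and of Mtf2, Phf19 and Epop among these with Jarid2 and Aebp2 (right), with 95% binomial intervals; circles are all cells and triangles core cells. Primed core cells are lowest on the left at 1.98%, and naive, d16 Dppa5a-high and d16+10p cells lie above 70% on the right.

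Over the 15 clusters with at least 100 cells, Ezh1, Ezh2, Suz12, Jarid2 and Mtf2 were highest in cluster 5, with 91.0% d16 cells. Epop was highest in cluster 7, with 86.4% d16+10p cells. Both clusters were Pou5f1-high, and the share of all genes that are highest in such clusters was not computed. For Ezh1, cluster 5 at 21.0 CPM (19.0 to 23.1) overlapped cluster 13 at 19.6 (13.7 to 27.1). Phf19 and Eed were highest in other clusters. Eed was highest in cluster 14, a cluster of 171 cells, of which 88.3% were d8, led by Krt15, Nectin4 and Hoxc13, where it was at 199 CPM (183 to 215) with a read in 78.4% of the cells. The next cluster, cluster 5, was at 140 CPM (134 to 145). In cluster 14 Ezh2 was at 109, Suz12 at 108 and Mtf2 at 79.0 CPM. The opposite-strand gene E230029C05Rik, which shares exon sequence with Eed, was at 6.0 CPM there and at 2.79 or less in the other 14 clusters. Jarid2 was second highest in cluster 9 (Cer1, Lhx1) at 119.6 CPM (113 to 126). In a small cluster of 56 cells with 2-cell-stage genes, Mtf2 was at 768 CPM (708 to 831), above all larger clusters. From the highest to the lowest cluster the fold was 3.78 for Ezh1, 6.53 for Ezh2 and 8.62 for Mtf2. Of the 14 steps between neighbours in this order, 13 had overlapping intervals for Ezh1 and 6 for Ezh2.

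**Figure D5:**
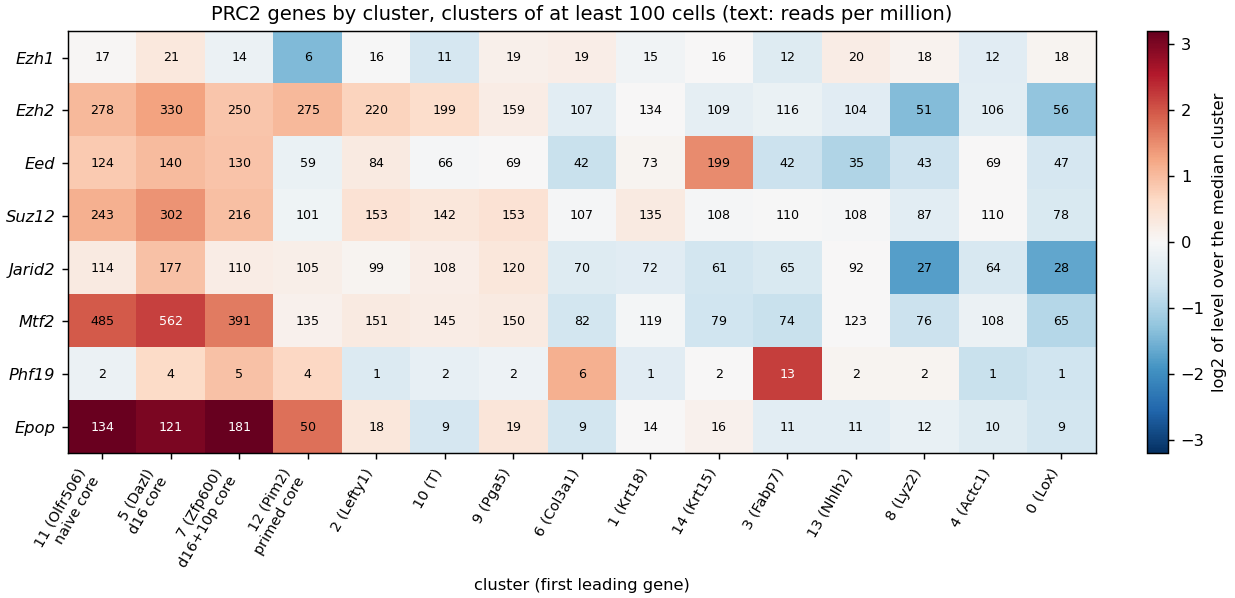
Levels of the PRC2 genes (rows) in the 15 clusters with at least 100 cells (columns, with their first leading gene), coloured by the log2 of the level over the median cluster; the printed value is the level in CPM. The core clusters stand at the left, and the single high value of Eed outside them is cluster 14, at 199 CPM.

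Across the 15 clusters the levels of Ezh2, Suz12, Jarid2, Mtf2 and Epop went together, with Pearson r of log2(CPM + 1) from 0.60 (Jarid2 and Epop) to 0.95 (Suz12 and Mtf2). For Ezh1, r with the other 7 ran from -0.29 (Ezh2) to 0.23 (Suz12). For Eed, r with Ezh2, Suz12, Jarid2, Mtf2 and Epop ran from 0.45 (Jarid2) to 0.66 (Suz12). With the summed proliferation list, r was 0.92 for Ezh2, 0.84 for Epop, 0.80 for Mtf2, 0.78 for Suz12 and 0.77 for Jarid2. It was 0.59 for Eed, 0.28 for Phf19 and -0.22 for Ezh1. These are descriptions over clusters of 1 library that share cells of the same tags. The genes most like each member, among 7538 with a mean of at least 20 CPM, were Hnrnpl, Ipo11 and H2ac7 for Ezh2 (r = 0.98, 0.98 and 0.97), Fbxw2, Msh6 and Trim6 for Eed (0.96, 0.95 and 0.94) and Pias2, Baz2a and Zfp984 for Suz12 (0.96, 0.93 and 0.93). They were Khsrp and Ctcf for Jarid2 (0.96 and 0.96), Cdc5l, Zfp961 and Ash2l for Mtf2 (0.97, 0.95 and 0.95) and Alg13, Gm32885 and Mybl2 for Epop (0.98, 0.97 and 0.97). For Ezh1 (Mob1a, Usp8, Zc3h7a) and Phf19 (Chpt1, A2m, Fgb) the highest r was 0.78 and 0.86.

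Members were also split by proliferation, using the pooled median of the summed list, 807 CPM per cell. Ezh2 was higher above the median in all 6 groups, with log2 ratios from 0.53 in d16+10p to 1.52 in primed cells. In d8, Ezh2 was at 179 CPM above and 74.8 below the median. Eed, Suz12, Mtf2 and Epop were higher above it in 6 of 6 groups, Phf19 in 5, Jarid2 in 4 and Ezh1 in 2. In d16+10p, Ezh1 was at 12.8 CPM above and 22.6 below. In all, 41 of 48 pairs of member and group were higher above the median, against 48.9% of all 61177 pairs of gene and group with at least 10 CPM. Phf19, under 10 CPM in every group, is kept in the 48. By group, the share of all genes ran from 43.0% in naive to 63.5% in d8 cells. The strata also differed in cell types: fibroblast markers summed to 865 CPM above and 3984 below in primed, and to 559 and 1828 in naive cells. In naive cells Epop was at 114 CPM above and 6.08 below, and Mtf2 at 441 and 106. The part of other cells in these values was not tested. The lower stratum held 109 naive, 38 d16 Dppa5a-high and 108 d16+10p cells.

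Other genes of the pathway were read from lists, beside 21.1% of all genes higher and 25.2% lower in d16 Dppa5a-high against Dppa5a-low cells. Of 6 other PRC2 genes, 3 had at least 10 CPM in d16 Dppa5a-high against Dppa5a-low cells, 2 of them higher and 0 lower (median log2 ratio over the whole list 0.39, over all genes tested -0.01). Aebp2, the partner of Jarid2, was at 101 against 58.8 CPM, and Ezhip, a PRC2 inhibitor of germ cells, was at 8.66 against 1.03 CPM and at 1.83 CPM or less in naive, primed, d8 and d16+10p cells. Of 24 genes of the canonical and variant forms of Polycomb repressive complex 1 (PRC1), 20 were measured, 7 higher and 6 lower (median 0.11). Cbx7, the chromodomain subunit known from embryonic stem cells, was at 24.8 against 4.14 CPM and at 27.0 in naive and 10.3 in primed cells. Of 11 opposing enzymes, such as H3K27 demethylases and H3K4 methyltransferases, 2 were higher and 1 lower (median 0.12). Of 24 known Polycomb target genes, 5 reached 10 CPM, 1 higher and 2 lower (median -0.43). Against naive, d16+10p cells had 0 higher and 0 lower among the measured other PRC2 genes, opposing enzymes and target genes, and 1 higher and 1 lower among 21 PRC1 genes, beside 2.81% and 1.99% of all genes.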

How the data were processed

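Cells were captured with BD Rhapsody and tagged through biotinylated antibodies against CD9 and CD63. The authors trimmed reads with cutadapt 2.10 and mapped them to Ensembl mouse cDNA and ncRNA sequences with Bowtie2 2.3.4.1 (submitters' processing notes, which name mm10), and the deposited values are raw read counts per gene symbol and cell, with tag doublets removed by the authors. Molecular identifiers are not described and strand use in counting is not given in the sources used here. The intervals take each read as independent. They do not cover duplicate reads of a molecule, spread between cells or spread between samples, and can be too narrow. Overlapping opposite-strand genes (Tmed5 for Mtf2, E230029C05Rik for Eed) cannot be told apart, whereas at most 0.307% of a member's 50-base words occurred in sense in other genes.

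The table held 17720 cells, 3179 to 111822 reads each, and no cell barcode was listed more than once. Populations were taken from the tag in each column name. Counts were summed per group and scaled to CPM; intervals are 95% (exact Poisson, exact binomial). Cells were clustered with Seurat 5.3.0 (R 4.3.3; 2000 variable genes without members, 56 components, 50 neighbours, resolution 0.8), giving 18 clusters. Clusters were Pou5f1-high at 25% or more of the highest cluster's level with a read in at least 75% of cells. A cluster was named from at least 3 markers of a list. Thinning used 5000 reads per cell and left out shallower cells (68 naive, 271 primed, 755 d8, 604 d16, 69 d16+10p). edgeR 4.0.16 gave TMM factors. The ratio code was checked on simulated data.

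The members and gene lists were chosen with earlier results of these data known. The text names the members, the listed genes with large ratios and the 3 genes most like each member over clusters, except for genes that are not reported here. Alternatives were pseudocount, scaling, depth, gene filters, core cells, the Dppa5a split and clustering.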

Additional observations from a re-analysis of the deposited data

How the results depend on the processing

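The count of members at least 1.5-fold apart and the other main results were recomputed under 75 alternatives, of which 69 gave a like value. The count stayed within 1.5 times of the value given in naive against primed, in d16 Dppa5a-high against primed and against Dppa5a-low, and in d16+10p against primed. For d8 against primed it was 4 and became 2 with a pseudocount of 10 CPM, where Phf19 and Jarid2 dropped out. It was also 2 in cells above the median of the proliferation list, an alternative chosen after seeing the data, in which Ezh2 (-0.50) and Jarid2 (-0.34) dropped out. For d16+10p against naive it was 2 and became 1 with a pseudocount of 10 CPM, with the mean of the CPM of each cell and after thinning. The Ezh1 share under the primed tag, 4.99%, was 1.98% in core cells. No sign changed for a member at least 1.5-fold apart in 464 recomputed ratios, of which 139 left the counting interval of the value given. The background shares with a floor of 1 CPM or none are not repeated here. No paired analysis was possible because each population was 1 sample. Depth limits Phf19, with 32 reads in naive cells, and the lower proliferation strata.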
